A study of Homo sapiens with 9 samples.

Results

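The 10 genes described here encode enzymes that methylate lysine 4 of histone H3 (H3K4) and the core proteins these enzymes share. These genes are SETD1A, SETD1B, KMT2A, KMT2B, KMT2C, KMT2D, WDR5, RBBP5, ASH2L and DPY30. They were chosen by name, with earlier results of these data known, and are 10 of 20176 annotated protein-coding genes. Trimethylated H3K4 (H3K4me3) was measured on their own promoters. H3K4me3 was mapped by CUT&RUN, where an antibody brings a nuclease to marked chromatin and the DNA cut free is sequenced. The cells were HEL, an established line of human erythroleukemia. All groups were HEL cells carrying CRISPR guides: 3 libraries with guides that target no gene (NTC, non-targeting control), and 2 libraries each with a knockout of METTL3 (METTL3-KO), METTL14 (METTL14-KO) or WTAP (WTAP-KO), which encode subunits of the methyltransferase that places m6A on RNA. Each library was a list of called peaks with 1 value per peak. No label gives the unit of that value, and it was taken as a spike-in calibrated signal summed over the peak. A promoter value is the signal of the largest peak within 1 kb of any annotated start of the gene, and 0 means that no peak was listed there. The widest peak listed was 2000 bp, and whether wider stretches of signal were left out of the lists was not tested, so a gene without a peak is not shown to lack the mark.

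H3K4 methyltransferases work in complexes called COMPASS. Each holds 1 catalytic subunit, and WDR5, RBBP5, ASH2L and DPY30 form the core that every such complex needs for full activity. SETD1A and SETD1B are the catalytic subunits of the SET1 complexes, which place most H3K4me3 on active promoters. KMT2A and KMT2B, also called MLL1 and MLL2, act at developmental and CpG-rich promoters, and KMT2A is a frequent partner in leukemia gene fusions. KMT2C and KMT2D, or MLL3 and MLL4, mainly monomethylate H3K4 at enhancers. CpG-rich DNA is bound by CXXC domains, found in KMT2A, KMT2B and the SET1 subunit CXXC1.

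The promoters differed in their content of CpG, the dinucleotide that CXXC domains bind. Between the NTC and KO lists, KMT2A and KMT2B, a pair of MLL paralogs, differed in opposite directions. KMT2A had no listed peak in NTC, which does not show that the mark was absent. KMT2D and RBBP5 had, in every KO library, a smaller peak than in NTC or none listed. For these genes the 250 bases before the most upstream annotated start within 100 bp of the canonical one are shown. They were read from the GRCh37 (hg19) genome at chr11:118306921-118307170 (plus strand, KMT2A), chr19:36208625-36208874 (plus, KMT2B), chr12:49454578-49454827 (minus, KMT2D) and chr1:205091144-205091393 (minus, RBBP5). Each is written 5′ to 3′ in the direction of transcription, and capitals mark every CG.
KMT2A promoter: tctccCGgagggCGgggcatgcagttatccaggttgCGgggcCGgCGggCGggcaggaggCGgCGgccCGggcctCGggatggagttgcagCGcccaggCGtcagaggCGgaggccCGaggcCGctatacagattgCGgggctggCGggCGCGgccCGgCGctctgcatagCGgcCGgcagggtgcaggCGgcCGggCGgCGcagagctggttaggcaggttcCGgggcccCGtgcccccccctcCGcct
KMT2B promoter: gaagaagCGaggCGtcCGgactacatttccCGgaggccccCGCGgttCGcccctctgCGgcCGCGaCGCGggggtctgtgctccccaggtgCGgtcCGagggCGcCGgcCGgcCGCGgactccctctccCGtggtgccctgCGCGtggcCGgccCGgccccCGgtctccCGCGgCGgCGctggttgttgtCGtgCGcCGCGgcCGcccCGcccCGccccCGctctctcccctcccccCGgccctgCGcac
KMT2D promoter: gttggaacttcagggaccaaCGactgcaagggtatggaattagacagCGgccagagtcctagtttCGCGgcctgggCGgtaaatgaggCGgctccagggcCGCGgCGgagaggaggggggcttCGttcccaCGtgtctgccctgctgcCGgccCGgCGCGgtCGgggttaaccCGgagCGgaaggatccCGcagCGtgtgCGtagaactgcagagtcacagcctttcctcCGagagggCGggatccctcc
RBBP5 promoter: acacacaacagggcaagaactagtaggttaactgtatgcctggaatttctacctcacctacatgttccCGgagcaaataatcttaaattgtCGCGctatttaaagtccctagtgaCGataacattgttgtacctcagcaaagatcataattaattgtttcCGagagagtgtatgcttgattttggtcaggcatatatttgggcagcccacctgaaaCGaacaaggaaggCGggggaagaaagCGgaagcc

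The KMT2B window held 39 CG dinucleotides, KMT2A 30, KMT2D 23 and RBBP5 8, against a median of 17 over 20152 promoters of the same length. GC content was 80% for KMT2B, 77.2% for KMT2A, 65.6% for KMT2D and 43.6% for RBBP5, against a median of 62.4%. Among the other members, KMT2C held 47 CG, ASH2L 24, SETD1A and WDR5 23 each, DPY30 21 and SETD1B 17. RBBP5 therefore had the fewest CG of the 10 and KMT2C the most. The GATA motif AGATAA and the KLF1-type motif CCACACCC, searched on both strands, matched in none of the 10 windows, and matched in 6.84% and 2.98% of all windows. This says only that these letters are not in these windows.

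The lists held 3160 to 21941 peaks per library, with every knockout (KO) list shorter than any NTC list. They give no read totals, so depth is unknown, and they hold no expression, so neither the knockouts nor the level of any methyltransferase could be checked. The calibration made 1 step of signal worth 1.14 to 1.32 in the NTC libraries and 0.320 to 1.07 in the KO libraries, and its part in the results was not tested beyond the values under other scalings. Of 8 erythroid marker genes reported here, 7 had a promoter peak in all NTC libraries, among them GATA1 and KLF1, while NFE2 had one in a single NTC library. Of 4 lymphoid genes not expected in HEL, CD3E and CD79A had no NTC peak, and PAX5 and CD8A had one in all 3.

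In NTC cells 9 of the 10 genes had a called H3K4me3 peak at their promoter, all but KMT2A, and each of the 9 had one in all 3 libraries. Of all annotated protein-coding genes, 42.1% had a promoter peak in all NTC libraries. The number of members marked was 9 in each NTC library, 7 and 8 in METTL3-KO, 6 and 3 in METTL14-KO, and 3 and 2 in WTAP-KO. Over the same libraries the share of all genes marked went from 46.8% to 47.9% in NTC to 33.5% and 34.6% in METTL3-KO, 13.2% and 21.1% in METTL14-KO, and 11.4% and 12.9% in WTAP-KO. A lower share of cells with the mark and less mark per cell cannot be told apart here.

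**Figure D1:**
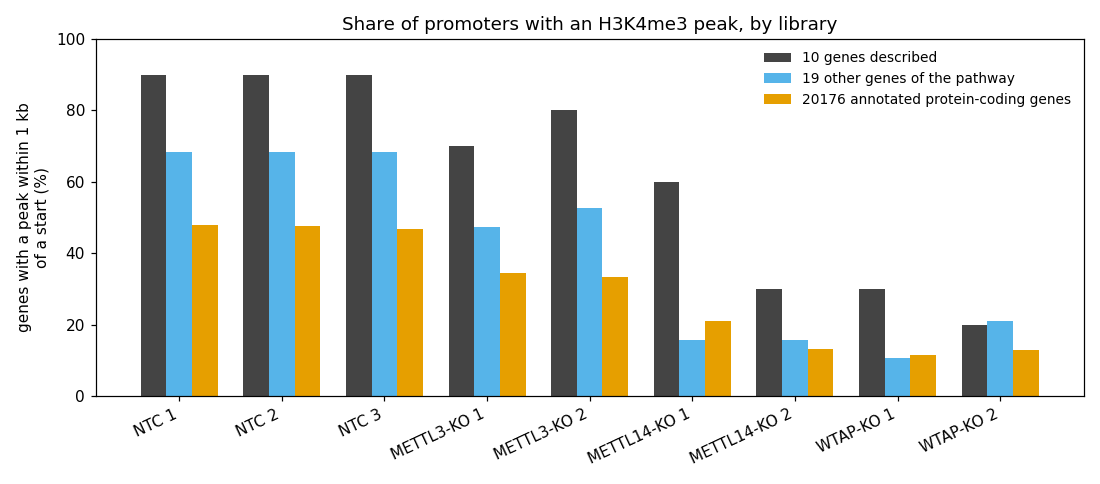
Bars give the percent of genes with an H3K4me3 peak within 1 kb of an annotated start (y axis) in each of the 9 libraries (x axis), for the 10 genes described, 19 other genes of the pathway and all 20176 protein-coding genes. The 10 genes are marked in 9 of 10 cases in each NTC library and in 2 or 3 of 10 in the WTAP-KO libraries.

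Of the 9 genes marked in NTC, SETD1A and WDR5 had no promoter peak in any KO library. The same was true of 45.8% of the 8495 genes with a promoter peak in each NTC library. In METTL3-KO, 2 of the 9 had no peak in either library, against 46.3% of NTC-marked genes. In METTL14-KO it was 4 of 9 (KMT2D, RBBP5, SETD1A and WDR5), against 73.3%, and in WTAP-KO 7 of 9, against 84.9%. ASH2L and KMT2C were the 2 that still had a peak in WTAP-KO.

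Compared with NTC by limma across all genes tested, all 10 members passed the filter of a promoter peak in at least 2 libraries. KMT2A passed it only through the KO libraries, and SETD1A, WDR5 and KMT2D only through NTC, so their difference was partly set by the filter. In METTL3-KO 4 members were lower (SETD1A, KMT2D, RBBP5 and WDR5) and 2 higher (KMT2A and SETD1B), while 60.9% of the 12037 genes tested were lower and 14.0% higher. In METTL14-KO 7 members were lower and KMT2A was higher, beside 68.8% and 8.38% of all genes. In WTAP-KO 8 members were lower and KMT2A was higher, beside 69.7% and 6.81%. For all KO groups together 7 were lower and KMT2A was higher, beside 73.0% and 14.3%, with SETD1B and ASH2L passing in neither direction.

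The median change of the members on the scale of log2(signal + 30.1) was -2.47 in METTL3-KO, -5.35 in METTL14-KO and -6.06 in WTAP-KO. The medians of all genes tested were -3.48, -5.57 and -5.97. The pseudocount, 30.1 signal units, sets the size of any change against a group without a peak, so a log2 difference that involves libraries without a peak depends on it and is not a fold change. The 3 comparisons share the NTC libraries. With each library centred on the 665 genes marked in all 9, the medians of all genes were -1.82, -3.67 and -4.14, those of the members were -0.69, -3.48 and -3.69, and the members called were 4 lower and 3 higher in METTL3-KO, 4 and 2 in METTL14-KO, 7 and 1 in WTAP-KO, and 5 and 3 for all KO groups. The calls lost to centring were KMT2B (adjusted p = 0.183), KMT2C (0.0551) and DPY30 (0.0806) in METTL14-KO and KMT2C in WTAP-KO (0.13), and for all KO groups KMT2B (0.0694) and KMT2C (0.106). SETD1B (adjusted p = 0.0051) and ASH2L (0.0458) passed as higher for all KO groups when centred.

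**Figure D2:**
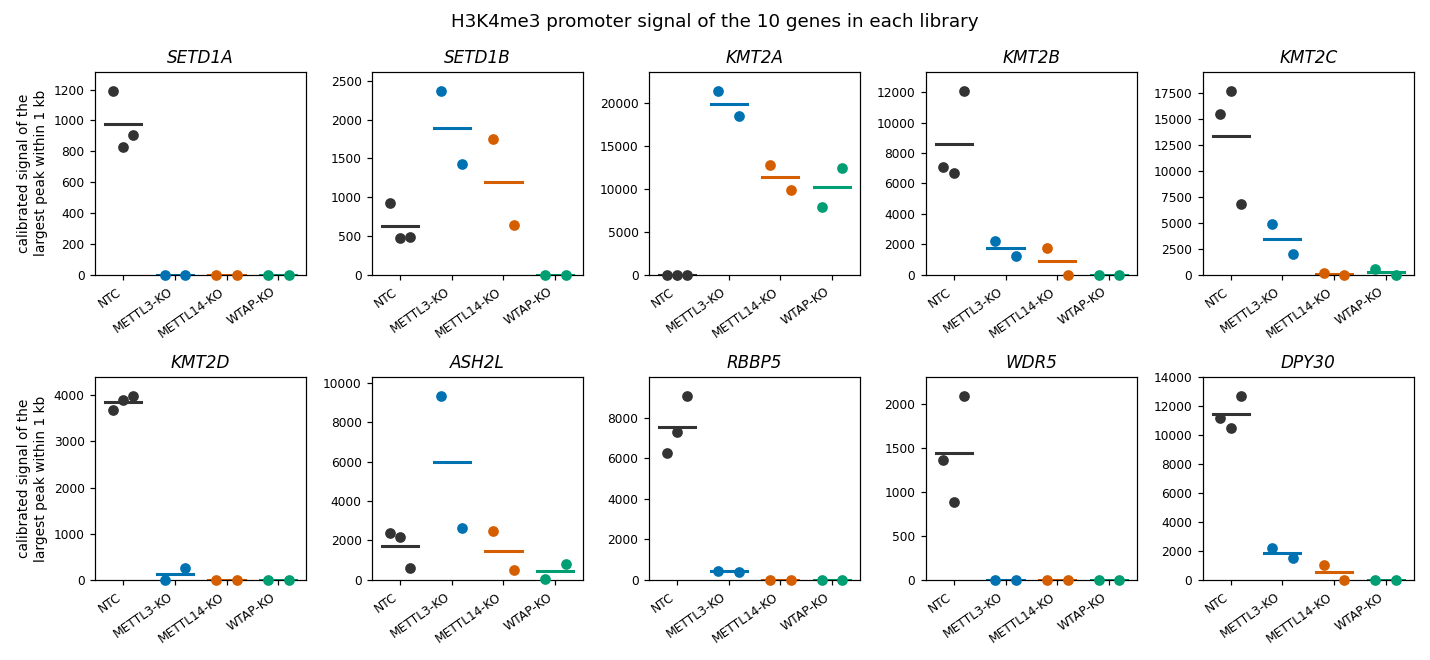
Each panel is 1 gene, each point 1 library, and each line the group mean of the calibrated signal of the largest peak within 1 kb of a start (y axis, linear, from 0, with its own range per gene) by group (x axis). KMT2A is at 0 in NTC and high in every KO library, while SETD1A and WDR5 are at 0 in every KO library.

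The SET1 enzymes differed in their 1 kb promoter value in METTL3-KO and METTL14-KO, and neither had a promoter peak in WTAP-KO. SETD1A, the catalytic subunit of 1 SET1 complex, had promoter signals of 1192, 827 and 903 in NTC replicates 1, 2 and 3 and no peak in any KO library, within 5 kb either. Its NTC peaks were narrow, 551 to 678 bp wide, and ended 28 to 40 bp before the canonical start. The adjusted p against NTC was 6.23e-07 in METTL3-KO and 5.45e-07 in both METTL14-KO and WTAP-KO. Every KO library took the same value, so the spread within groups came from NTC alone. SETD1A also passed the filter only through NTC, so these p-values add no support beyond the listed peaks.

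SETD1B, its paralog, had signals of 928, 467 and 488 in NTC, 2372 and 1422 in METTL3-KO, 1753 and 645 in METTL14-KO, and no peak in WTAP-KO. Both METTL3-KO libraries lay above all NTC libraries, METTL14-KO overlapped NTC, and WTAP-KO lay below. The log2 difference from NTC was 1.57 ± 0.55 (SE, adjusted p = 0.0372) in METTL3-KO and 0.81 ± 0.55 (adjusted p = 0.215) in METTL14-KO. METTL14-KO passed as higher when centred on the genes marked in all 9 libraries (3.68, adjusted p = 0.000158), when divided by the step (2.33, 0.0363) and without METTL14-KO replicate 2 (1.51, 0.0416).

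The SETD1B peaks compared were not at the same place. In NTC they began 662 bp downstream of the canonical start, over exon 2 and intron bases beside it. In METTL3-KO and METTL14-KO they lay upstream, ending 686 to 758 bp before the start, where a start of RHOF and one of the noncoding gene LINC01089 also lie within 1 kb. No KO library had a peak at the NTC position. With peaks required to cover a start, the METTL3-KO and METTL14-KO differences on the log2 scale were both -4.38 (adjusted p = 2.78e-05 and 2.56e-05), the direction of SETD1A. Their size was set by the pseudocount. With the window at 5 kb the METTL3-KO difference was 0.87 (adjusted p = 0.16). The call was also lost without NTC replicate 2 (adjusted p = 0.1) or 3 (0.0971), METTL3-KO replicate 1 (0.159), or either WTAP-KO replicate (0.0623).

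KMT2A had called peaks only in the knockouts. No NTC library had a peak within 5 kb of its 26 annotated starts, and the nearest NTC peak lay 75716 to 75747 bp upstream of the canonical start. The promoter signal was 21473 and 18475 in METTL3-KO, 12812 and 9913 in METTL14-KO, and 7936 and 12457 in WTAP-KO. Per bp of the peak it was the highest member in each of the 6 KO libraries. The adjusted p against NTC was 5.57e-07 in METTL3-KO, 7.54e-07 in METTL14-KO and 8.34e-07 in WTAP-KO. All NTC libraries took the same value, so the spread within groups came from the KO libraries alone. KMT2A also passed the filter only through the KO libraries, so these p-values add no support beyond the listed peaks. With peaks required to cover a start the METTL3-KO call was lost (4.63 ± 2.46 on the log2 scale, adjusted p = 0.13). A peak in all 6 KO libraries and no NTC library was found for 2.91% of annotated protein-coding genes.

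The KMT2A peaks flanked the start with edges shared between libraries. The upstream peaks next to the start ended between 25 bp before and 4 bp after the canonical start, position 118307207 of chromosome 11 on hg19, and held the whole promoter sequence printed above. The first downstream peak of each KO library began 774 to 817 bp after it, and METTL14-KO replicate 2 had another, with more signal (6106 against 367), that began 1189 bp after it. All lay within intron 1. The peaks that gave the promoter value were 1205 to 1978 bp wide, with a median of 1515.5 bp. For the 665 genes with a promoter peak in all 9 libraries the median width was 547 bp in KO libraries and 1503 bp in NTC. Whether a stretch wider than 2000 bp was left out at KMT2A in NTC was not tested, so a gain of the mark is not shown. METTL3-KO replicate 1 had no upstream peak, where METTL3-KO replicate 2 had one of 1978 bp, close to the 2000 bp of the widest peak in any list.

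KMT2B, the paralog of KMT2A, had the lower listed signal in the knockouts. Its signal was 7051, 6705 and 12096 in NTC, 2242 and 1222 in METTL3-KO, 1759 and 0 in METTL14-KO, and 0 in both WTAP-KO libraries. Every KO library lay below every NTC library. The change passed in METTL14-KO (adjusted p = 0.0225) and in WTAP-KO (adjusted p = 0.00293). In METTL3-KO, whose mean was 20.1% of the NTC mean, the log2 difference was -2.30 ± 1.59 (SE, adjusted p = 0.224) with the spread shared over all groups, and adjusted p = 0.00846 with only METTL3-KO and NTC in the fit. The shared spread includes METTL14-KO, where 1 of 2 libraries had a peak. With METTL14-KO replicate 1 or 2 left out the METTL3-KO difference passed as well (adjusted p = 0.00371 and 0.00398), while the METTL14-KO call was lost without NTC replicate 1 (0.0518) or 3 (0.0629), with only METTL14-KO and NTC in the fit (0.063) and when divided by the step (0.0933).

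The KO peaks of KMT2B were narrower than its NTC peaks. The largest peak was 956 to 1543 bp wide in NTC and 282 to 330 bp wide in the 3 KO libraries that had one, inside the NTC interval upstream of the start. Its mean signal per bp was 4.58, 7.01 and 7.84 in NTC and 7.14, 4.33 and 5.33 in those KO libraries, so the ranges overlapped. Within 5 kb the KMT2B value came in most libraries from a second peak near internal starts, shared with a start of IGFLR1, which METTL14-KO replicate 2 (1268) and WTAP-KO replicate 2 (154) also held.

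KMT2C had signals of 15534, 17752 and 6833 in NTC, 4926 and 2010 in METTL3-KO, 159 and 0 in METTL14-KO, and 524 and 0 in WTAP-KO. Every KO library lay below every NTC library. NTC replicate 3 had no listed peak in intron 1, where the value arose in the other 2 NTC libraries and in all KO libraries with a peak. Its value came from a peak upstream of the start. The intron 1 peaks of NTC replicates 1 and 2 were 1861 and 1757 bp wide, near the 2000 bp of the widest peak listed. Whether a wider stretch was left out for NTC replicate 3 was not tested. The upstream peak, present in all 3 NTC libraries with signals of 5924, 6317 and 6833, was in no KO library. The change passed in METTL14-KO (adjusted p = 0.00284) and WTAP-KO (adjusted p = 0.00458). In METTL3-KO the log2 difference was -1.96 ± 1.42 (SE, adjusted p = 0.243), and adjusted p was 0.0413 with only METTL3-KO and NTC in the fit.

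KMT2D, which with KMT2C makes up the enhancer-directed pair, was the most even in NTC, with signals of 3680, 3892 and 3987 in a peak over the start. One METTL3-KO library, replicate 2, had a peak of 262, and the other 5 KO libraries had none. The change passed in METTL3-KO (adjusted p = 0.00131), METTL14-KO (0.000305) and WTAP-KO (0.000292). KMT2D passed the filter only through NTC, so these p-values add no support beyond the listed peaks. Within 5 kb, the values of NTC replicates 2 and 3 (5767 and 12204) came from peaks near internal starts far downstream. So did values of 114 to 971 in 4 KO libraries. These peaks also lie near a start of PRKAG1.

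**Figure D3:**
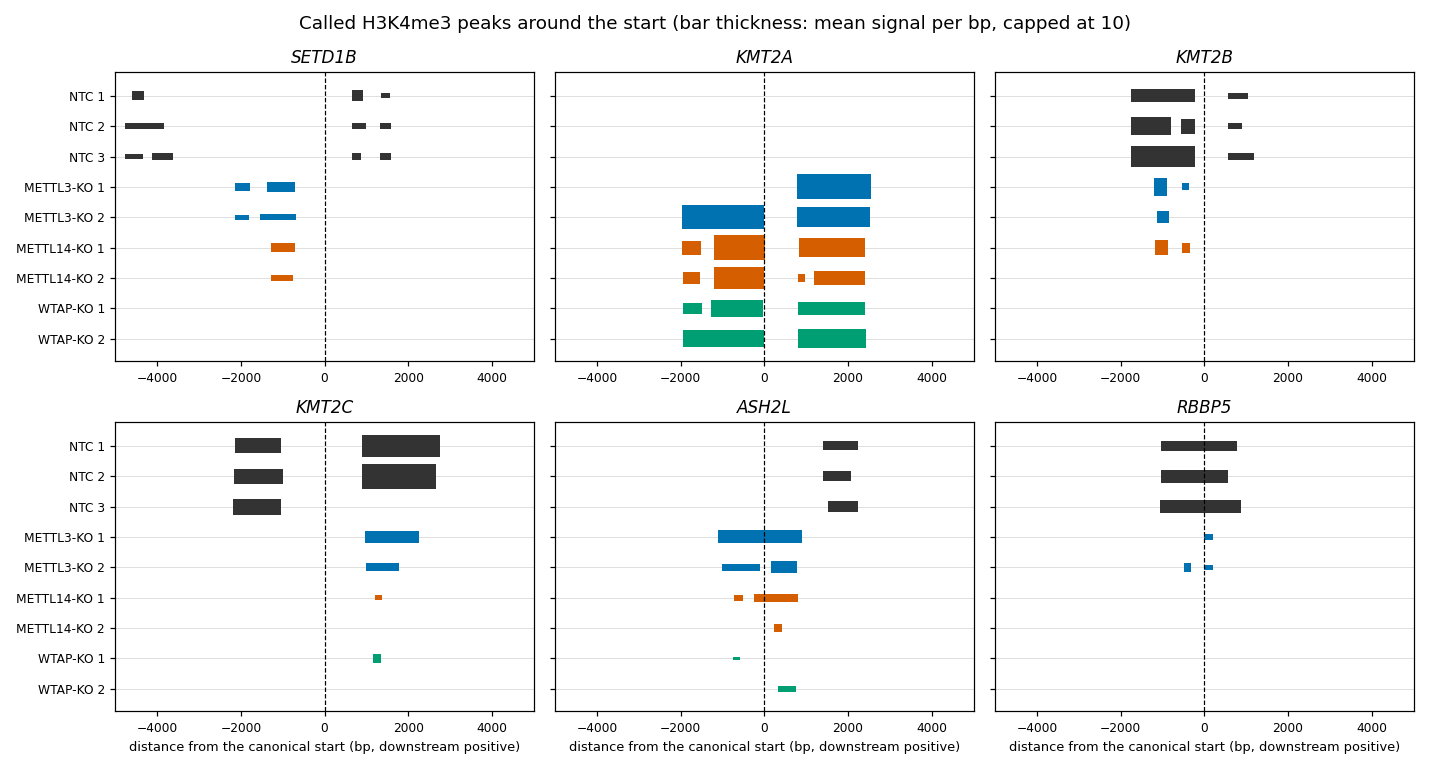
Called H3K4me3 peaks in each library (y axis) by distance from the canonical start (x axis, bp, downstream positive), for 6 of the genes, with bar thickness giving the mean signal per bp up to 10. KMT2A has peaks on both sides of the start in 5 of 6 KO libraries and none in NTC, RBBP5 loses a wide peak over the start, and the NTC and KO peaks of ASH2L and SETD1B lie at different places.

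The core subunits also moved in different ways. WDR5, the scaffold that binds the catalytic subunits, had signals of 1364, 878 and 2086 in NTC and no peak in any KO library. The largest NTC peak lay 544 to 656 bp upstream of its start, near the start of the divergent noncoding gene WDR5-DT. The adjusted p against NTC was 8.40e-06 in METTL3-KO, 7.33e-06 in METTL14-KO and 7.27e-06 in WTAP-KO. As for SETD1A, the spread within groups came from NTC alone and the gene passed the filter only through NTC. These p-values too add no support beyond the listed peaks.

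RBBP5, which with ASH2L stimulates the catalytic subunits, had signals of 6279, 7290 and 9068 in NTC, 424 and 412 in METTL3-KO, and no peak in METTL14-KO or WTAP-KO. The groups did not overlap. Its wide NTC peak, 1590 to 1940 bp over the start, was reduced in METTL3-KO to peaks of 157 to 229 bp. METTL3-KO retained 5.54% of the NTC mean, a log2 difference of -4.06 ± 0.24 (SE, adjusted p = 7.16e-06). This is the promoter with the fewest CG in the sequences printed above.

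DPY30, the small subunit that binds ASH2L, had signals of 11211, 10487 and 12716 in NTC, 2190 and 1492 in METTL3-KO, 1057 and 0 in METTL14-KO, and 0 in both WTAP-KO libraries. All KO libraries lay below all NTC libraries, and the peaks that remained covered the same start. The change passed in METTL14-KO (adjusted p = 0.00664) and WTAP-KO (adjusted p = 0.00114). METTL3-KO held 16.0% of the NTC mean, with a log2 difference of -2.64 ± 1.38 (SE, adjusted p = 0.125), and adjusted p = 0.000852 with only METTL3-KO and NTC in the fit. It passed as well without METTL14-KO replicate 1 (adjusted p = 0.000347) or 2 (0.000392).

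ASH2L, the subunit that joins RBBP5 and DPY30, was the only member with a promoter peak in all 9 libraries. Its signal was 2395, 2156 and 621 in NTC, 9330 and 2629 in METTL3-KO, 2453 and 494 in METTL14-KO, and 63.5 and 789 in WTAP-KO. METTL3-KO lay above NTC and the other KO groups overlapped it. No difference from NTC passed in this fit, with log2 differences of 1.72 ± 1.27 (adjusted p = 0.25) in METTL3-KO, -0.41 ± 1.27 (0.802) in METTL14-KO and -2.45 ± 1.27 (0.119) in WTAP-KO. Centred on the genes marked in all 9 libraries they were 3.41 (0.0343), 2.55 (0.0859) and 0.94 (0.47). METTL14-KO was at 0.72 without its replicate 2 (0.708), and WTAP-KO passed as lower without its replicate 2 (-4.01, 0.0386) and with the window at 5 kb (-3.15, 0.0409).

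As with SETD1B, the ASH2L peaks were at different places. NTC replicates 1 and 2 had their peak over exon 3 and the introns beside it, 1406 bp downstream of the canonical start. NTC replicate 3 had a peak of 2759 there too, but 1121 bp from the nearest start, so its value of 621 came from an internal start. No NTC library had a listed peak over the canonical start or within 1 kb of it. Every KO library had a peak that lay in or reached into the 1 kb on either side of that start, the widest, at 1999 bp and so close to the widest in any list, in METTL3-KO replicate 1. With peaks required to cover a start, METTL3-KO was higher than NTC, by 7.37 on the log2 scale set by the pseudocount (adjusted p = 0.00436), and so was METTL14-KO, by 5.24 (adjusted p = 0.018).

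Levels of different genes were compared per bp of the largest peak. In NTC the order was DPY30 (10.9 ± 2.98 signal per bp, SD, n = 3), KMT2C (8.13 ± 2.08), KMT2B (6.48 ± 1.70), RBBP5 (4.23 ± 0.688), KMT2D (3.24 ± 0.202), WDR5 (3.23 ± 0.383), ASH2L (2.96 ± 0.219), SETD1B (2.42 ± 1.11) and SETD1A (1.59 ± 0.500). Neighbours in this order overlapped over the 3 libraries, except RBBP5 and KMT2D. KMT2A, with no NTC peak, had 6.32 to 12.1 signal per bp in the KO libraries, with a median of 8.78.

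The breadth of the mark needs no pseudocount. It was measured as the bases within 5 kb of any start that lie in a peak, and tested by limma on 12819 genes. Internal starts count, so peaks that also lie near starts of other genes enter. For KMT2B in NTC replicate 1 a peak of 1808 bp lay near a start of IGFLR1. For KMT2D a peak of 1887 bp in NTC replicate 3, and all 552 bp of METTL3-KO replicate 1, lay near a start of PRKAG1. In METTL3-KO 6 members were lower (SETD1A, KMT2B, KMT2D, RBBP5, WDR5 and DPY30) and KMT2A higher, while 67.5% of genes were lower and 13.3% higher. In METTL14-KO 8 members were lower and KMT2A higher, beside 71.0% and 5.98%, and in WTAP-KO 8 and KMT2A, beside 71.7% and 4.18%. For all KO groups it was 8 lower and KMT2A higher, beside 75.4% and 11.3%, with ASH2L in neither. Without METTL14-KO replicate 2 the number lower in METTL14-KO was 5.

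KMT2A went from 0 bp in NTC to 1776 and 3724 bp in METTL3-KO, 3268 and 3003 bp in METTL14-KO, and 3320 and 3529 bp in WTAP-KO. The covered bases therefore did not follow the order of its signal, which was highest in METTL3-KO. Of the KO libraries, METTL3-KO replicate 1, without an upstream peak, had the fewest covered bases and METTL3-KO replicate 2 the most. The limma difference of METTL3-KO from the other KO groups in covered bases did not pass (adjusted p = 0.634). DPY30 went from 1170, 1219 and 1283 bp in NTC to 550 and 578 bp in METTL3-KO, a change that passed in this measure (-660 ± 121 bp, SE, adjusted p = 0.00199). KMT2B also passed in METTL3-KO (-2093 ± 647 bp, adjusted p = 0.021), but not without NTC replicate 1 (0.0559) or 2 (0.0629) or without METTL3-KO replicate 1 (0.0634) or 2 (0.102). KMT2D in METTL3-KO (adjusted p = 0.0207) was lost without NTC replicate 2 (0.0619) or 3 (0.0565), without METTL3-KO replicate 1 (0.0755) or 2 (0.0884), and with only METTL3-KO and NTC in the fit (0.0654). KMT2C had 2950, 2934 and 1148 bp in NTC and 1282 and 789 bp in METTL3-KO, which overlapped. It did not pass there (adjusted p = 0.0649), and passed without NTC replicate 3 (0.000278).

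**Figure D4:**
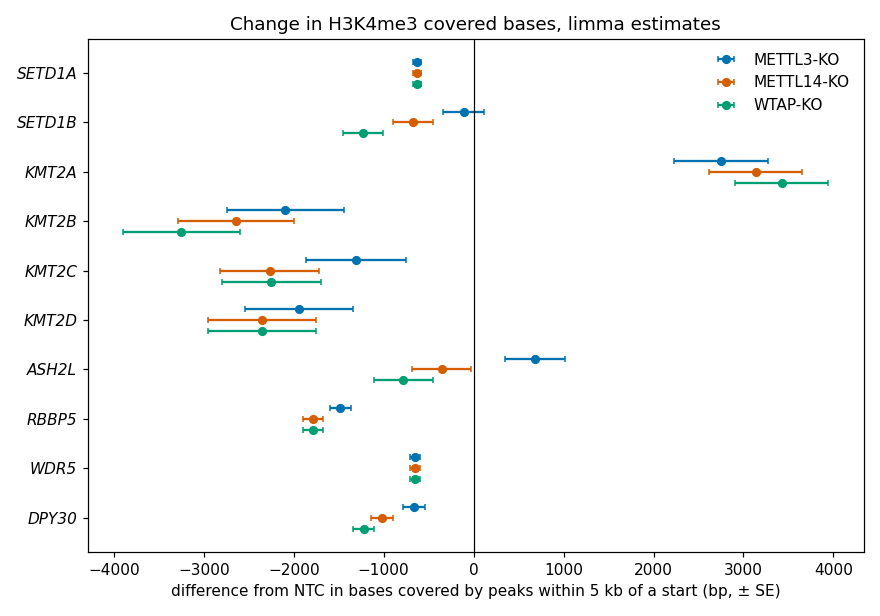
Points give the limma estimate of the difference from NTC in bases covered by peaks within 5 kb of any start (x axis, bp) for each gene (y axis) and KO group, with bars of 1 SE. KMT2A lies above 0 in all 3 groups, ASH2L in METTL3-KO, and the other estimates lie below 0.

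The groups with different m6A subunits removed were also compared with each other. The promoter signal was higher in METTL3-KO than in METTL14-KO and WTAP-KO for 4 members, KMT2C, RBBP5, SETD1B and DPY30, and lower for none, while 29.5% of all genes were higher. RBBP5 had a peak in both METTL3-KO libraries and in none of the other 4 KO libraries (adjusted p = 5.13e-05). KMT2C (adjusted p = 0.0348) and DPY30 (0.0415) had both METTL3-KO libraries above the other 4, while SETD1B (0.00387) had them above WTAP-KO and overlapping METTL14-KO. KMT2A did not pass (a log2 difference of 0.91 ± 0.31, adjusted p = 0.0785, and -0.70 when centred on the genes marked in all 9 libraries), although both METTL3-KO libraries lay above the other 4, and it passed without METTL14-KO replicate 1 (0.0473). RBBP5 and SETD1B passed with any 1 library left out. DPY30 was lost without any 1 of the NTC, METTL3-KO or WTAP-KO libraries (adjusted p from 0.0773 to 0.2), and KMT2C without any 1 of the NTC or METTL3-KO libraries or METTL14-KO replicate 2 (from 0.0617 to 0.201). In covered bases 3 members were higher in METTL3-KO, ASH2L, SETD1B and DPY30, against 26.0% of all genes. With 1 library left out the promoter count ranged from 2 to 6, with 2 when any NTC replicate or METTL3-KO replicate 2 was left out, and the covered-base count from 0 to 4, with 0 without METTL3-KO replicate 1 or either WTAP-KO replicate. Without METTL3-KO replicate 2 no member was higher in covered bases and 1, KMT2A, was lower (-1504 bp, adjusted p = 0.00429).

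Among 19 other genes of the pathway, 13 had a promoter peak in all NTC libraries, against 42.1% of all annotated protein-coding genes. Another 4 (PSIP1, PAGR1, KMT2E and ASH1L) had one in KO libraries but none in NTC. SMYD1 and PRDM9, which are restricted to muscle and germ cells, had none in any library. Of the 13, HCFC1, KDM6A, PAXIP1, SMYD2 and SMYD3 had no peak in any KO library, as was true of 45.8% of all NTC-marked genes. Over all KO groups 12 of the 16 tested were lower and 2 higher (KMT2E and ASH1L), beside 73.0% and 14.3% of all genes. The median of the 16 was -5.62, beside -5.30 for all genes. KMT2E and ASH1L passed the filter only through KO libraries. Within 5 kb KMT2E had NTC peaks of 650.2, 1241 and 2239, and its covered bases were lower over all KO groups (-641 bp, adjusted p = 0.00288). CXXC1, the CpG-binding SET1 subunit, went from 5540, 3640 and 4844 in NTC to 796 and 262 in METTL3-KO and to no peak in the other groups. HCFC1, a chromatin-bound partner of the SET1 and MLL complexes, had 430, 716 and 412 in NTC, and KDM6A, the H3K27 demethylase of the MLL3 and MLL4 complexes, had 1824, 1237 and 1918.

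MEN1, which encodes menin and tethers KMT2A and KMT2B to chromatin, kept a peak in 5 of 6 KO libraries but fell, from 6095, 6296 and 6613 in NTC to 798 and 1196 in METTL3-KO, 1199 and 103 in METTL14-KO, and 0 and 359 in WTAP-KO (adjusted p = 0.00772 over all KO groups). WDR82, a SET1 subunit that binds RNA polymerase II, kept a peak in all 6, with 928, 11223 and 16290 in NTC and 366 to 3433 in KO libraries, and did not pass (adjusted p = 0.142). NCOA6, a subunit of the MLL3 and MLL4 complexes, went from 21483, 20509 and 25832 to 2907 and 496 in METTL3-KO, 0 in METTL14-KO, and 1244 and 1315 in WTAP-KO (adjusted p = 6.02e-05). Within 5 kb NCOA6 had peaks of 5262 to 14482 in all 6 KO libraries, which lay farther than 1 kb from a start. The KO mean was 44.8% of the NTC mean. The NTC values within 5 kb were the same as within 1 kb, so this sets peaks at different places against each other. Loss by distance was not measured. KMT2A had all 6 KO libraries above all NTC libraries, and no gene of this list did.

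The pattern of each member with a peak in at least 4 libraries was set against every other protein-coding gene tested, by Pearson's r of log2 signal over the 9 libraries, as a description. The most alike gene was PIGU for KMT2A (r = 0.9997, with 494 genes above 0.95), ZWINT for KMT2B (0.9993, 704 genes), RABGAP1 for KMT2D (1.00, 1506 genes), VAV1 for RBBP5 (0.9999, 1574 genes) and PFKM for DPY30 (0.9999, 856 genes). These genes share with the member the libraries at 0, which set most of r. For KMT2C it was PHF10 (0.986, 63 genes) and for SETD1B DZANK1 (0.979, 5 genes). ASH2L had no gene above 0.95, the most alike being TMEM70 (0.934).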

How the data were processed

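H3K4me3 CUT&RUN was done in HEL cells in 4 groups, taken with their replicate numbers from the sample labels. The authors aligned paired reads with Bowtie to hg19 and, for the yeast spike-in, to sacCer3, calibrated each library to the spike-in, removed duplicates with Picard and called peaks in each library separately (versions not given in the sources used here). The deposited values were taken as a calibrated signal per peak, summed over its width, which no label states. They are not counts, so no count test was used. The lowest deposited signal was 30.1 to 32.0 in every library, so weaker peaks read as 0.

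Starts were taken from GENCODE v44lift37 on hg19, and file starts were read as counted from 0. The largest signal within 1 kb of any start was tested as log2(signal + 30.1), the pseudocount being the smallest promoter signal, with limma 3.58.1 (R 4.3.3) and the trend option, 9 libraries in 1 model, over 12037 genes with a peak in at least 2 libraries. Bases covered within 5 kb were tested in bp over 12819 genes. P-values were adjusted by Benjamini-Hochberg over all genes at a threshold of 0.05, and two-sided. No source says that replicates came from separate cultures, so p-values measure only the spread between libraries. Libraries of a group without a listed peak all take the same value and add no spread, which makes p-values smaller. In promoter signal of the members this holds for the KO libraries of SETD1A and WDR5 and for NTC of KMT2A. It also holds for METTL14-KO and WTAP-KO of KMT2D and RBBP5, and for WTAP-KO of SETD1B, KMT2B and DPY30. The added pseudocount shrinks log2 differences where signals are weak. The number of libraries limits the precision. Alternatives were the pseudocount, the window, the starts used, the filter, centring, the sum of peaks, stronger peaks only, division by the step, the groups fitted, the replicate block and leaving out each library.

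The members and lists, the other genes of the pathway and the markers were chosen with earlier results of these data known. Of the markers, 2 are not reported here. Genes named were the 10 members, listed pathway genes with a peak in at least 4 KO libraries or above every NTC library plus CXXC1, MEN1, KDM6A and HCFC1, the gene most alike each member, and neighbours with a start within 1 kb. PSIP1, PAGR1, KMT2E, ASH1L, PAXIP1, SMYD1, SMYD2, SMYD3, PRDM9, PRKAG1 and IGFLR1 fall outside this rule and were named after their values were seen. Python 3.11.15, pandas 2.3.3, numpy 2.4.6 and matplotlib 3.10.9 were used.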

Additional observations from a re-analysis of the deposited data

Results flagged for a closer look

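The members that differed between KO groups under the limma test of METTL3-KO against METTL14-KO and WTAP-KO, all higher in METTL3-KO, are given here by their difference. On the log2 scale of the promoter signal it was 5.01 ± 1.35 (SE, adjusted p = 0.0348) for KMT2C, 3.90 ± 0.23 (5.13e-05) for RBBP5, 3.36 ± 0.52 (0.00387) for SETD1B and 4.64 ± 1.31 (0.0415) for DPY30, and all 4 sizes depend on the pseudocount, since METTL14-KO or WTAP-KO libraries were at 0. In covered bases it was 1250 ± 314 bp (adjusted p = 0.0292) for ASH2L, 841 ± 214 bp (0.0303) for SETD1B and 460.5 ± 115 bp (0.0283) for DPY30.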

How the results depend on the processing

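The lists hold called peaks only, so a 0 says only that no peak was listed, depth is unknown, and 2 or 3 libraries a group limit every test. Of 1685 member results under alternatives, 1520 kept their direction and call, 88 lost the call, 53 gained one and 24 changed sign. The decrease of RBBP5 in METTL3-KO passed under every alternative run. For the results below the cause was not tested.

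With peaks required to cover a start, log2 differences turned to -4.38 for SETD1B in METTL3-KO and in METTL14-KO, to 5.24, 2.38 and 5.00 for ASH2L in METTL14-KO, WTAP-KO and all KO groups, and to -3.83 for KMT2A in METTL3-KO against the other KO groups. With centring on genes marked in all 9 libraries they turned to 2.55, 0.94 and 2.30 for ASH2L in METTL14-KO, WTAP-KO and all KO groups, 1.40 for SETD1B over all KO groups, and -0.70 for KMT2A in METTL3-KO against the others. Divided by the step they turned to 1.11 and 0.94 for ASH2L in METTL14-KO and all KO groups and 0.12 for SETD1B over all KO groups, which was 0.092 with 10 times the pseudocount. ASH2L covered bases within 1 kb turned to 539.5, 115.5 and 732 bp in METTL14-KO, WTAP-KO and all KO groups.

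The number of members that differed between METTL3-KO and the other KO groups in promoter signal was 2 with 0.1 times the pseudocount, 1 with peaks covering a start, 2 when centred, 2 when divided by the step and 0 with peaks at or above the NTC median, beside 4. Over all genes these numbers were 3622 in the report's setting, 2280 centred and 2082 divided by the step, each of 12037 tested. They were 2147 of 9351 covering a start and 888 of 8692 with peaks at or above the NTC median. In covered bases the number of members was 0 with peaks at or above the NTC median, where 1098 of 9408 genes differed. It was 6 with only the groups compared, where 5516 of 6860 genes differed. In the report's setting it was 3, beside 3411 of 12819 genes. With peaks at or above the NTC median 4 members passed in covered bases in METTL3-KO, beside 7057 of 9408 genes. All genes with a promoter call were then 6127 in METTL14-KO and 6099 in WTAP-KO, of 8692 tested. In the report's setting they were 9290 and 9206 of 12037. The mean number of members with a promoter peak was 6 in NTC, 3.5 in METTL3-KO and 1.5 in WTAP-KO with peaks covering a start, 5.67 in NTC, 4 in METTL3-KO, 1.5 in METTL14-KO and 1 in WTAP-KO with peaks at or above the NTC median, and 3.5 in WTAP-KO within 5 kb.

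With 1 library left out, which leaves a KO group with a lone library assumed to vary like the others, ASH2L ranged from -1.53 to 0.72 in METTL14-KO and from -0.98 to 0.14 over all KO groups on the log2 scale, and from -899.7 to 185 bp and from -333 to 28.3 bp in covered bases. SETD1B covered bases in METTL3-KO ranged from -349 to 38 bp, and KMT2A in METTL3-KO against the others from -1504 to 444 bp. The counts of members that differed between METTL3-KO and the other KO groups ranged from 2 to 6 and, in covered bases, from 0 to 4, over all genes down to 2389 and 2144 without METTL3-KO replicate 1.

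Replicate numbers showed no clear pairing, with correlations of deviations from -0.0578 to 0.095 within 12 same-numbered pairs. In groups of 2 libraries the deviations mirror each other, so these pairs are not independent. They cannot settle whether libraries were paired. With the replicate block the members passing in promoter signal were 6 in METTL3-KO, 7 in METTL14-KO, 9 in WTAP-KO and 3 in METTL3-KO against the others, KMT2B in METTL14-KO was lost (adjusted p = 0.0659), as was KMT2D in covered bases in METTL3-KO (0.0691), and of 100 member results 92 kept their call, 6 lost it and 2 gained one. A fit of only the groups compared is the full fit for all KO groups and was not run apart.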
